A study of Mus musculus with 8 samples.

Results

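Among the cells of whole forelimbs at embryonic day 11.5 (E11.5), 188 of 11146 carried transcripts of *Myog* together with at least 1 other muscle-lineage gene, 101 of 5464 in whole 1 and 87 of 5682 in whole 2. These *Myog* cells were chosen by their counts of unique molecular identifiers (UMIs, each marking 1 captured transcript). A cell needed at least 3000 UMIs, at most 10% of them mitochondrial, at least 1 *Myog* UMI and at least 1 UMI of *Myod1*, *Myf5*, *Lbx1* or *Actc1*. They were set against 385 *Myog*-negative myogenic cells (199 and 186), which held at least 2 of *Pax3*, *Lbx1*, *Msc*, *Myf5* and *Myod1* but no *Myog*, and against the 10573 other cells (5164 and 5409). Across all 8 libraries of the series 53085 cells passed the same filter. The question was how cells in which *Myog* was detected differed from the myogenic cells around them in which it was not; 0 UMIs do not show that a cell lacked *Myog*.

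Both whole limb libraries came from C57BL/6J forelimbs carrying 2 copies of a *Hic1* CreERT2 allele and 2 copies of a Cre-dependent Rosa26 tdTomato reporter, and the dams received 7.5 mg of tamoxifen by gavage at E10. All 3 classes of cells therefore share the Hic1 knock-in, the reporter and the tamoxifen. Neither library was sorted on the reporter. The methods state that lineage-negative cells of dissociated limbs were captured. The methods state how many forelimb pairs were pooled at E11.5 but do not tie a number to either whole limb library. The classes compared come from the same 2 libraries, so the p-values below take in no more than counting error and the spread between these 2 libraries, which may be technical.

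Limb muscle arises from somite cells that express *Pax3*, *Lbx1* and the receptor gene *Met* and migrate into the limb bud. There they switch on the myogenic basic helix-loop-helix (bHLH) factors. *Myf5* and *Myod1* commit cells to the muscle lineage, and myogenin, the product of *Myog*, drives their terminal differentiation into cells that leave the cell cycle, build sarcomeres and fuse. These factors pair with E proteins and bind the E-box, a short DNA motif of the form CANNTG, and they act with Mef2 proteins on muscle promoters.

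Promoters are shown first because many of the genes described below are known targets of such factors. They were read from RefSeq on GRCm38.p6 as 250 bases before and 50 after the annotated start of each gene, on the gene's own strand and 5′ to 3′, with each CANNTG in capitals. *Myog* was chosen because it defines the cells. *Unc45b*, a myosin chaperone gene, had the largest fitted fold change among the sarcomere genes. That rank rests on its 0 UMIs in *Myog*-negative cells and is no measured size. *Chrna1*, the acetylcholine receptor alpha subunit gene, and *Mylpf*, the fast skeletal regulatory myosin light chain gene, were added after their values had been seen.
Myog, chr1:134289754-134290053, plus strand: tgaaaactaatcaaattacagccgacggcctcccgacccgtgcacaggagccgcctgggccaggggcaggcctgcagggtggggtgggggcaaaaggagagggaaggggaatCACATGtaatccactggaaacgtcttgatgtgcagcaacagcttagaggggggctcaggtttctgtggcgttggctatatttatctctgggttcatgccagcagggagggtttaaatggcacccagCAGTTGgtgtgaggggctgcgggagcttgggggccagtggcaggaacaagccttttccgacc
Unc45b, chr11:82911003-82911302, plus strand: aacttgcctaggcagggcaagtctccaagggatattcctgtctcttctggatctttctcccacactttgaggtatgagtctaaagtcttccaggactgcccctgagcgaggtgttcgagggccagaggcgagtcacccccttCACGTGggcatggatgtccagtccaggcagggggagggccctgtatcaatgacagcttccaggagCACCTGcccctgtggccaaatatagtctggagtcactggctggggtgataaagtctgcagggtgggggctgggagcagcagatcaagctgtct
Chrna1, chr2:73580289-73580588, minus strand: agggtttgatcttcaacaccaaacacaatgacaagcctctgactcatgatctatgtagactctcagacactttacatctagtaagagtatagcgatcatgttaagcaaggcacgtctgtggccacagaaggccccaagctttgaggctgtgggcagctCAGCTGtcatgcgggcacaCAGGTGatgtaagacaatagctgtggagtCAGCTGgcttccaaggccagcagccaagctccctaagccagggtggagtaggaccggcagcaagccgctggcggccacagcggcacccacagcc
Mylpf, chr7:127211358-127211657, plus strand: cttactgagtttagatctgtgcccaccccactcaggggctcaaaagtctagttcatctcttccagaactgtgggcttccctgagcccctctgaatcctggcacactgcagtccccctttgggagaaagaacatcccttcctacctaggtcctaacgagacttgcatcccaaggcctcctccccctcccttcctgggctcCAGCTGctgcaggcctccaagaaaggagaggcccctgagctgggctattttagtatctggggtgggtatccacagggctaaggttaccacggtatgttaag
Both strands are covered by 1 search, since CANNTG and CAGCTG read the same on either strand. The *Myog* window held CACATG at base -138 and CAGTTG at -12, counted from the start to the first base of the motif. In the *Chrna1* window CAGCTG, a form of the E-box, began at bases -92 and -44, and in the *Mylpf* window it began at -51. Of the 39 sarcomere, receptor and excitation genes that were higher in *Myog* cells (below), 30 matched the promoter table by symbol, with 33 promoters. CAGCTG was present in 17 of these 33 promoters (51.5%), and 5355 of the 32851 promoters of the table (16.3%) held it. The wider motif CANNTG was in 29 of the 33 (87.9%) and in 72.3% of all promoters, and the Mef2 motif was in 5 of the 33 (15.2%) and in 3.19% of all. A match is a description of the letters, not a measured binding site. The genes come from chosen lists of muscle genes, and they were not compared with other tested genes or with list genes that did not pass. The shares therefore do not show a link to *Myog* in these cells.

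The defining genes were examined in each library as a check of the label, with no test because they chose the cells. *Myog* (chr1:134289989-134292548, plus strand, mm10) stood at 1246 counts per 1000000 UMIs of its class (CPM) in whole 1 and 1182 in whole 2, against 0 in the *Myog*-negative class by definition and 1.22 and 1.77 in other cells. *Myod1* was present in 93 of 101 and 75 of 87 *Myog* cells. *Actc1*, cardiac actin, which embryonic skeletal muscle also uses, was present in 42 of 101 and 37 of 87. *Pax3*, which did not enter the choice of *Myog* cells, still had a UMI in 69 of 101 and 59 of 87 cells. The count of *Myog* UMIs per cell was uneven: it ran from 1 to 108 with a median of 3 in whole 1 and from 1 to 111 with a median of 3 in whole 2, and the 11 and 9 cells with the most held 50.3% and 53.7% of them. The check of *Myod1* and *Actc1* is not independent of the rule, which used both. Cells with 1 *Myog* UMI held sarcomere transcripts near the level of the *Myog*-negative class (given below by *Myog* UMIs), so the cells are called *Myog* cells here by their rule.

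At the edge of the rule, 57 and 71 cells had *Myog* but none of the 4 second genes, and 56 and 69 of those had a single *Myog* UMI. Of these cells 55 and 68 also had a UMI of *Prrx1*, a limb mesenchyme gene. They are counted among the other cells, of which 1.10% and 1.31% therefore held a *Myog* UMI. Just inside the rule, 5 and 8 members had 1 *Myog* UMI and 1 second gene. Median depth was 12274 and 10858 UMIs in *Myog* cells, 13174 and 12369 in *Myog*-negative myogenic cells and 8712 and 8451 in other cells. With every cell thinned to 3000 UMIs before the rule was applied, 64 and 44 cells remained. The libraries share 45 cell barcodes. No *Myog* cell of whole 1 and 2 of whole 2 have a barcode that also occurs in the other library, and none is a *Myog* cell in both.

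*Myog* cells made up 1.85% of whole 1 (exact binomial 95% interval 1.51% to 2.24%) and 1.53% of whole 2 (1.23% to 1.89%). The intervals, which cover counting error only, overlap. With thinning first, the shares were 1.17% (0.903% to 1.49%) and 0.774% (0.563% to 1.04%).

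Next, UMIs were summed over the cells of each class in each library and the sums were compared by the edgeR quasi-likelihood test with the library as a block. *Myog* cells differed from *Myog*-negative myogenic cells in 849 of 10247 genes, 8.29% of those tested, with the 7 genes of the class rules left out. Of these, 608 (5.93%) were higher and 241 (2.35%) lower in *Myog* cells. For 795 of the 849, both libraries of 1 class lay beyond both of the other. These genes had been called from the same sums, and the share over all tested genes was not counted, so this is no replication. The estimated spread between libraries beyond counting error was small (biological coefficient of variation 1.59%, 2 residual degrees of freedom), so these p-values rest largely on the UMI counts. DESeq2 called 483 genes, and the fit with no library block called 436 (373 higher, 63 lower). With the same cells of each class thinned to 3000 UMIs after the rule had been applied, 282 were called.

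**Figure D1:**
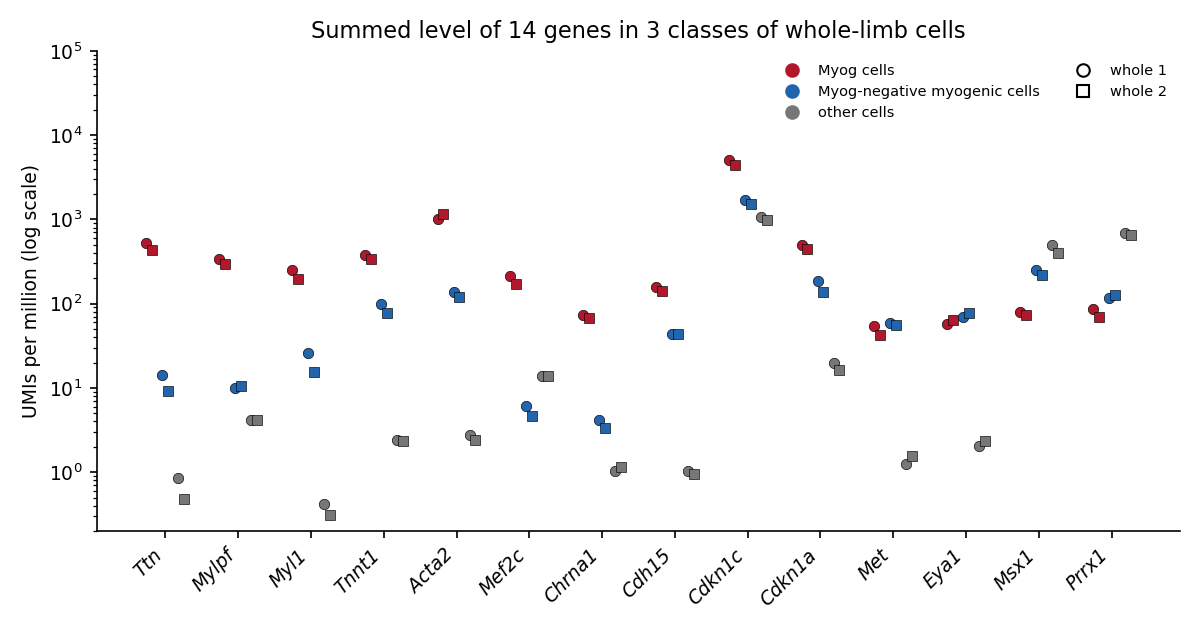
Summed level of 14 genes (CPM, log scale) in *Myog* cells (red), *Myog*-negative myogenic cells (blue) and other cells (grey); circles are whole 1 and squares whole 2. *Ttn* lies at 519 and 435 in *Myog* cells against 14.1 and 9.22 in *Myog*-negative cells, while *Met* lies at 54.0 and 42.5 against 58.7 and 56.2, and *Prrx1* is highest in other cells.

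Among the lists other than cell type markers, the tested sarcomere genes had the highest median log2 fold change. Of 39 sarcomere-list genes in the files besides *Actc1*, 28 were tested, 27 were higher in *Myog* cells and none was lower (background 5.93% higher). A gene at or near 0 in the other classes is tested only if it is high in *Myog* cells. This count, the median below and its rank therefore describe only the genes that could be tested. The other 11 genes reached at most 17.5 CPM. The median log2 fold change of the tested sarcomere genes was 4.85, 5.17 within whole 1 and 4.18 within whole 2, and that of all genes was 0.00. *Mybpc1*, a myosin-binding protein gene of slow fibres, was the 1 that missed the threshold: it stood at 31.0 and 33.2 CPM in *Myog* cells and already at 25.5 and 21.4 CPM in *Myog*-negative cells.

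The sarcomere genes named next were near 0 in *Myog*-negative cells or at low levels there. *Ttn* (chr2:76703980-76982547), which encodes the giant spring titin, stood at 519 and 435 CPM in *Myog* cells and at 14.1 and 9.22 CPM in *Myog*-negative cells. Its log2 fold change was 5.39 ± 0.14 (SE; edgeR adjusted p = 2.74e-318). *Myh3*, the embryonic myosin heavy chain, had 128 UMIs over the *Myog* cells of both libraries (67.5 and 44.6 CPM) and 1 UMI over the *Myog*-negative cells, a 288-fold ratio with a counting interval from 50.8 to 11474. The myosin chaperone gene *Unc45b* had 43 UMIs against 0, which makes it at least 32.3-fold higher when 3 UMIs over both libraries are taken as the limit of a count of 0. *Lmod3*, an actin filament nucleator gene, had 71 UMIs against 1, a ratio of 160-fold (27.8 to 6404). In each of these genes both libraries of *Myog* cells were far above both of the other class.

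Several troponin and actin genes were also low in *Myog*-negative cells. *Tnnc1*, slow troponin C, was at 102 and 78.8 CPM against 0.762 and 0.838 CPM (log2 fold change 6.86 ± 0.37). *Tnnt2* rose from 0.762 and 0.838 CPM to 61.1 and 63.2 CPM, *Tnni1* from 1.14 and 2.51 to 107 and 69.4 CPM, and *Tnnc2* from 1.52 and 1.68 to 65.1 and 91.2 CPM. These troponin genes belong in adult animals to different fibre types and the heart, and here they were high in the same summed cells. *Acta1*, skeletal actin, stood at 107 CPM in whole 1 but at 29.0 CPM in whole 2, a difference of several-fold between libraries, against 0.762 and 0.419 CPM. The pooled ratio of *Acta1* was 122-fold (41.1 to 600). *Cryab*, a small heat shock protein gene of muscle, was at 68.3 and 58.0 CPM with 2 UMIs in all *Myog*-negative cells (160-fold, 43.5 to 1333). *Klhl41*, a nebulin-stabilising adaptor gene, was at 73.1 and 61.1 CPM against 0.381 and 1.68 CPM.

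Other sarcomere genes also had UMIs in *Myog*-negative myogenic cells at levels above those of other cells. *Tnnt1*, slow troponin T, stood at 98.7 and 77.1 CPM in *Myog*-negative myogenic cells, at 382 and 340 CPM in *Myog* cells and at 2.42 and 2.38 CPM in other cells. *Tpm2*, a tropomyosin gene, was at 198 and 188 CPM, 465 and 417 CPM and 25.9 and 25.9 CPM in the same order. *Acta2*, the smooth muscle actin that early myoblasts also use, was fixed in the smooth muscle marker list: it was at 1000 and 1145 CPM in *Myog* cells, 139 and 120 CPM in *Myog*-negative cells and 2.78 and 2.44 CPM in other cells (log2 fold change between the first 2 classes 3.08 ± 0.06). Of the defining smooth muscle genes, *Myh11* was at 0 in both myogenic classes and *Myocd* had at most 0.794 CPM. *Tagln* stood at 17.5 and 12.4 CPM in *Myog* cells and 21.0 and 18.7 CPM in other cells.

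**Figure D2:**
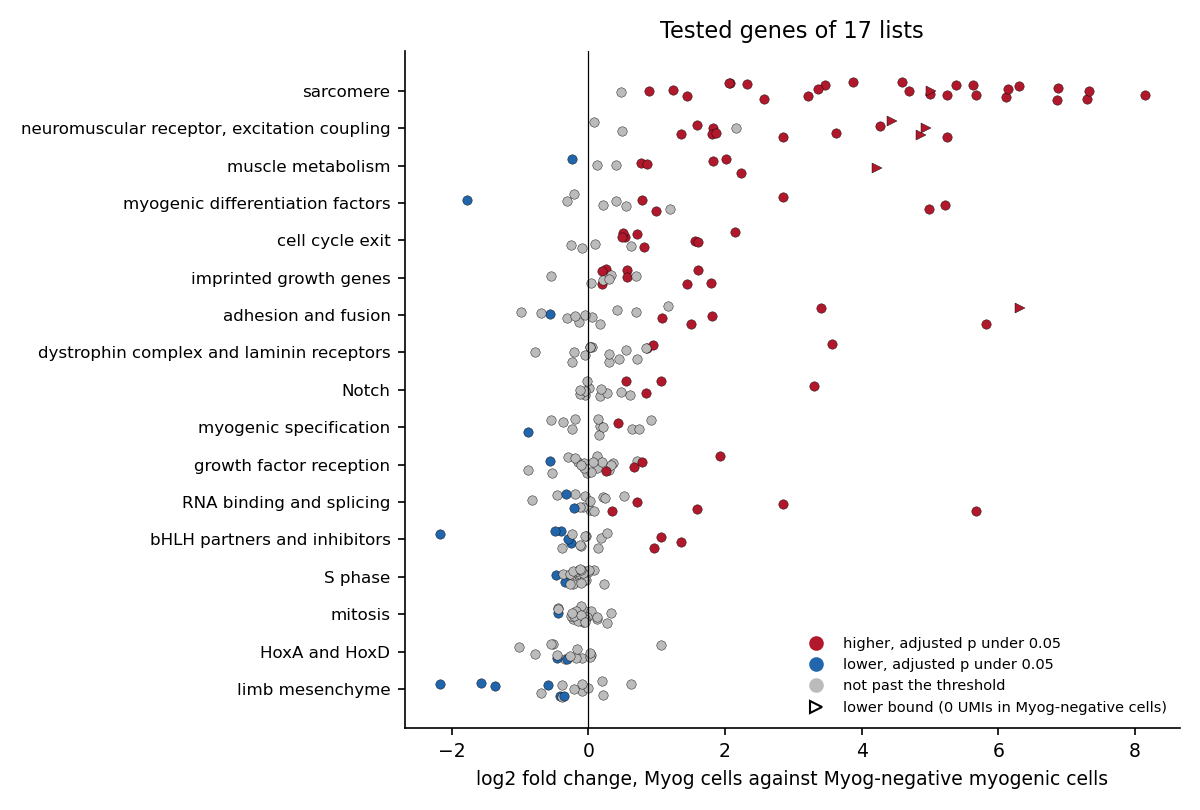
Log2 fold change of each tested gene in 17 lists, *Myog* cells against *Myog*-negative myogenic cells (x axis; 1 row per list, points spread vertically for legibility; rule genes left out). Red points are higher, blue lower and grey not past the threshold of 0.05, and triangles are lower bounds for genes with 0 UMIs in *Myog*-negative cells: sarcomere genes lie to the right with a median of 4.85, while S phase and mitosis genes lie close to 0.

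Genes of the nerve-muscle synapse and of excitation were examined next. Of 22 genes 15 were tested, of which 12 were higher and none lower (background 5.93% higher; median log2 fold change 2.17). Of the 15, 3 were at 0 in *Myog*-negative cells and so were tested through their level in *Myog* cells, and the 7 that were not tested reached at most 1.59 CPM. *Musk*, near 0 in both other classes, also passed the filter that way. *Chrng* and *Chrnd*, low in *Myog*-negative cells (values below), may have passed it that way too. The count and the median therefore describe only the genes that could be tested. *Chrna1* was at 73.8 and 68.4 CPM against 4.19 and 3.35 CPM (log2 fold change 4.27), and the fetal receptor subunit gene *Chrng* was at 20.6 and 12.4 CPM against 1.14 and 1.68 CPM. *Musk*, the kinase that clusters receptors at the synapse, had 17 UMIs against 1, a ratio of 38.3-fold (6.00 to 1600). The calcium-handling genes *Sln*, *Casq2* and *Stac3* were at 0 in *Myog*-negative cells. *Stac3*, needed for coupling of the calcium channel to release, was at least 29.3-fold higher (15.9 and 19.7 CPM). *Sln*, the sarcolipin gene, was at least 30.8-fold higher but stood at 29.4 CPM in whole 1 and 4.14 CPM in whole 2. *Casq2*, a calsequestrin gene, was at least 21.8-fold higher, with 19.9 and 4.14 CPM, and its call was lost with DESeq2. *Atp2a1*, the fast-fibre calcium pump, was at 54.0 and 51.8 CPM against 7.62 and 7.54 CPM, whereas the general pump gene *Atp2a2* was at 101 and 116 CPM against 98.0 and 112 CPM and did not pass the test. *Chrnd* (4.76 and 4.14 CPM against 1.52 and 0.419 CPM) and *Jph1* (27.8 and 32.1 CPM against 23.6 and 19.3 CPM) also missed it.

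Among 12 tested partners and effectors of myogenin, 5 were higher and 1 lower (background 5.93% higher, 2.35% lower). The 5 include *Smyd1*, near 0 in both other classes, which passed the filter on low counts through its level in *Myog* cells. *Mef2c*, which encodes the muscle partner of the bHLH factors, was at 214 and 173 CPM in *Myog* cells. It stood at 6.10 and 4.61 CPM in *Myog*-negative myogenic cells, lower than the 13.8 and 13.9 CPM of other cells (log2 fold change between the myogenic classes 5.22 ± 0.19, adjusted p = 6.98e-153). *Mef2a* rose less, from 64.8 and 75.9 CPM to 145 and 124 CPM, and *Mef2d* was at 23.8 and 32.1 CPM against 18.7 and 20.1 CPM without passing the test. *Smyd1*, a muscle methyltransferase gene, was at 18.3 and 32.1 CPM against 0.762 and 0.838 CPM, and *Rbm24*, a splicing regulator gene of muscle, at 168 and 177 CPM against 22.1 and 27.2 CPM. The lower gene was *Nfatc1*, a calcium-responsive factor gene, at 3.18 and 3.11 CPM against 8.004 and 14.7 CPM. The call of *Nfatc1* was lost under 4 alternatives, namely DESeq2, thinning, no library block and *Myog* as the only condition. *Myf6*, the last of the myogenic bHLH genes, was near 0 in every class (0 and 1.04 CPM in *Myog* cells) and was not tested.

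Of 19 tested RNA-binding genes, 5 were higher and 2 lower (background 5.93% higher, 2.35% lower), and 12 did not pass. The 5 include *Rbm24*, which is also counted in the list above, and *Srpk3*, near 0 in both other classes. *Srpk3* passed the filter on low counts through its level in *Myog* cells. *Celf2*, a splicing regulator gene, was at 378 and 352 CPM against 123 and 129 CPM, and *Rbfox2*, another, at 267 and 248 CPM against 156 and 171 CPM. *Srpk3*, a kinase of splicing factors in muscle, had 23 UMIs against 1 (51.8-fold, 8.41 to 2134). *Ptbp1*, a repressor of muscle exons, was lower, at 133 and 135 CPM against 169 and 179 CPM.

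The genes of both fusion proteins of myoblasts had few or no UMIs in *Myog*-negative cells. *Gm7325*, now named *Mymx*, which encodes the fusion peptide myomixer, had 106 UMIs in *Myog* cells (46.9 and 48.7 CPM) and 0 in the *Myog*-negative class, at least 79.6-fold more. *Tmem8c*, now *Mymk*, which encodes its partner myomaker, had 50 UMIs against 2 (56.3-fold, 14.8 to 478). Of 18 tested adhesion and fusion genes 6 were higher and 1 was lower (background 5.93% higher, 2.35% lower), and 11 did not pass. The 6 include *Gm7325*, *Tmem8c* and *Cd82*, which passed the filter on low counts through their level in *Myog* cells. *Cdh15*, muscle cadherin, was at 156 and 140 CPM against 43.5 and 43.6 CPM, and *Cd82*, a tetraspanin gene of muscle cells, was at 18.3 and 14.5 CPM against 2.29 and 0.838 CPM. *Cdh2*, neural cadherin, was the gene that was lower, at 46.1 and 64.2 CPM against 82.7 and 82.1 CPM. Of the dystrophin complex, 3 of 16 tested genes were higher (background 5.93%) and 13 did not pass. *Dmd* itself was at 3.18 and 1.04 CPM against 2.29 and 2.51 CPM. *Dag1*, dystroglycan, was at 38.9 and 37.3 CPM against 19.8 and 23.9 CPM. *Sgcb* was at 16.7 and 19.7 CPM against 8.39 and 10.9 CPM, just past the threshold (adjusted p = 0.046). The call of *Sgcb* was lost under 7 of the alternatives.

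Muscle metabolism genes were few. Of 18 listed genes 9 were tested, 6 were higher and 1 was lower (background 5.93% higher, 2.35% lower), and the other 9 did not pass the filter on low counts. A gene such as *Art1*, at 0 in *Myog*-negative cells, passed it through *Myog* cells, so this count describes only the genes that could be tested. *Ckb*, brain-type creatine kinase, was at 189 and 169 CPM against 51.8 and 39.4 CPM, whereas *Ckm*, the muscle-type enzyme, had no UMI in any class. *Pgam2*, a muscle glycolytic gene, was at 48.4 and 52.8 CPM against 14.5 and 14.7 CPM, and *Fabp3*, a fatty acid binding protein gene, at 17.5 and 9.33 CPM against 1.52 and 4.61 CPM. *Art1*, a surface ADP-ribosyltransferase gene, had 25 UMIs against 0, at least 18.8-fold more. *Ldha*, lactate dehydrogenase A, was the lower gene, at 776 and 824 CPM against 954 and 975 CPM.

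Of 12 tested genes of cell cycle exit 8 were higher (background 5.93%), none was lower and 4 did not pass. *Cdkn1c* (chr7:143458339-143461050, minus strand), an imprinted gene for the cyclin-dependent kinase inhibitor p57, was at 5036 and 4411 CPM in *Myog* cells, at 1684 and 1503 CPM in *Myog*-negative cells and at 1055 and 988 CPM in other cells. Its log2 fold change between the myogenic classes was 1.61 ± 0.03. *Cdkn1a*, which encodes the inhibitor p21, was at 490 and 445 CPM, 185 and 139 CPM and 19.5 and 16.1 CPM in the same order (1.56 ± 0.07 between the myogenic classes). *Rb1*, the retinoblastoma gene, was at 38.1 and 35.2 CPM against 10.3 and 6.71 CPM. *Btg2*, an antiproliferative gene, was at 39.7 and 39.4 CPM against 24.4 and 21.4 CPM, but other cells were higher at 57.9 and 53.9 CPM. Against other cells, 7 of the 12 were higher and 2 lower (background 18.9% higher, 13.6% lower). *Cdkn1b*, the inhibitor p27, was at 21.4 and 15.5 CPM against 23.6 and 22.6 CPM and did not pass.

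*Cdkn1c* also belongs to the list of imprinted growth genes, where 8 of 14 tested genes were higher (background 5.93%) and none lower. *Meg3*, an imprinted long RNA, was at 1020 and 994 CPM in *Myog* cells and at 385 and 371 CPM in *Myog*-negative cells, while other cells stood between them at 639 and 609 CPM. *Mirg*, a non-coding RNA of the same locus, was at 19.1 and 21.8 CPM against 6.48 and 5.45 CPM. *H19* was at 1632 and 1479 CPM against 1141 and 1010 CPM. *Dlk1*, an imprinted gene of the same locus as *Meg3*, was at 27.0 and 15.5 CPM against 32.8 and 33.5 CPM and did not pass.

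Few genes of replication and mitosis passed the test in the sums. Of 24 S phase genes none was higher and 2 were lower, *Rrm2* and *Cdc6*, and of 24 mitosis genes none was higher and 1 was lower (background 2.35% lower). That gene, *Ccnb2*, which encodes a mitotic cyclin, was at 80.2 and 68.4 CPM against 106 and 104 CPM (log2 fold change -0.44 ± 0.13, adjusted p = 0.0108). Its call was lost under 4 alternatives, namely DESeq2, thinning, no library block and *Myog* as the only condition. *Rrm2*, a ribonucleotide reductase gene, was at 318 and 314 CPM against 446 and 368 CPM, and *Cdc6*, a replication licensing gene, at 54.0 and 60.1 CPM against 89.2 and 71.2 CPM. Both calls were lost under 3 alternatives, among them thinning and no library block. *Mki67* was at 133 and 110 CPM against 109 and 97.6 CPM without passing the test.

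Mitosis genes were then counted by cell. At 3000 UMIs per cell, 73.3% of *Myog* cells in whole 1 (63.5% to 81.6%, exact binomial) and 63.2% in whole 2 (52.2% to 73.3%) held 3 or more of the 24 mitosis genes. Among *Myog*-negative myogenic cells the shares were 87.4% (82.0% to 91.7%) and 85.5% (79.6% to 90.2%), and among other cells 76.9% and 76.8%. *Myog* cells thus lay 14.2 and 22.3 percentage points below *Myog*-negative myogenic cells, a mean of -18.2 ± 5.72 points (SD, n = 2 libraries). Without thinning the shares were 90.1% and 88.5% against 97.5% and 98.4%, and the mean difference was -8.63 points. With 5 or more mitosis genes as the limit, the shares in whole 1 were 62.4% (52.2% to 71.8%) against 66.8% (59.8% to 73.3%) and in whole 2 52.9% (41.9% to 63.7%) against 70.4% (63.3% to 76.9%), and the intervals overlap in both libraries. The *Myog*-negative class was chosen by 2 detected genes at full depth, and its cells were deeper. An exact permutation test of 2 values against 2 cannot give a two-sided p below 0.333, so none is given. By the same count of S phase genes, 83.2% and 80.5% of *Myog* cells against 96.5% and 96.2% of *Myog*-negative cells held 3 or more.

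**Figure D3:**
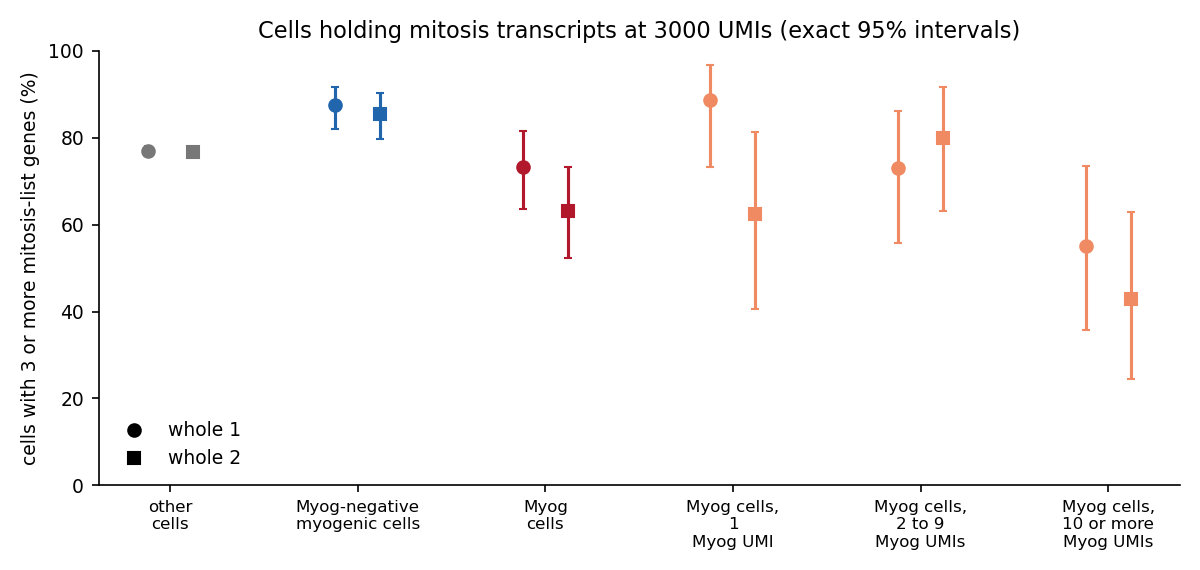
Share of cells (%) with UMIs of 3 or more of 24 mitosis genes at 3000 UMIs per cell, with exact binomial 95% intervals that cover counting error only; circles are whole 1 and squares whole 2, and the right-hand columns split the *Myog* cells by their *Myog* UMIs. Cells with 10 or more *Myog* UMIs lie lowest, at 55.2% and 42.9%.

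Most early lineage genes did not pass the test. Of 13 tested specification genes, 1 was higher and 1 was lower (background 5.93% higher, 2.35% lower), and 11 did not pass. *Met*, the receptor that guides migrating progenitors, was at 54.0 and 42.5 CPM against 58.7 and 56.2 CPM. *Eya1*, a transcriptional cofactor gene, was at 57.2 and 63.2 CPM against 69.0 and 78.0 CPM. Neither passed the test, which does not show that they were equal. *Meox2*, a somite and limb muscle homeobox gene, was lower (24.6 and 21.8 CPM against 38.9 and 50.3 CPM). *Pax7*, the later muscle stem cell gene, was at 9.53 and 13.5 CPM in *Myog* cells, with a UMI in 8 and 9 of them, and at 6.10 and 6.29 CPM in *Myog*-negative cells. Against other cells, 11 of the 13 were higher (background 18.9%).

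Of 17 tested bHLH partners and inhibitors, 3 were higher and 5 lower (background 5.93% higher, 2.35% lower). The Id genes, whose products hold E proteins in inactive pairs, stood lower: *Id3* was at 2574 and 3052 CPM against 3408 and 3657 CPM (log2 fold change -0.29), *Id2* at 1549 and 1843 CPM against 2268 and 2320.1 CPM (-0.40) and *Id1* at 1033 and 1269 CPM against 1311 and 1510.4 CPM (-0.25). The fourth Id gene, *Id4*, did not pass. *Twist2*, a bHLH repressor gene of mesenchyme, was at 8.73 and 8.29 CPM against 39.3 and 39.8 CPM, and is counted again among the limb mesenchyme markers below. The E protein genes *Tcf3*, *Tcf4* and *Tcf12* did not pass, with *Tcf12* at 368 and 385 CPM against 353 and 350 CPM. Among those higher were *Zeb2*, a zinc finger repressor gene, at 99.3 and 91.2 CPM against 41.5 and 34.8 CPM, and *Hes6*, an antagonist of the Notch target *Hes1*, at 311 and 254 CPM against 152 and 127 CPM. *Zeb1* was at 176 and 175 CPM against 97.6 and 87.6 CPM.

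In the Notch list, which shares *Hes6*, 4 of 15 tested genes were higher (background 5.93%) and none was lower. The 4 include *Dll1*, which passed the filter on low counts through its level in *Myog* cells, and 6 of the 21 listed genes were not tested. *Dll1*, a Notch ligand gene, was at 21.4 and 16.6 CPM in *Myog* cells, 2.67 and 1.26 CPM in *Myog*-negative cells and 0.569 and 0.584 CPM in other cells (log2 fold change between the myogenic classes 3.30 ± 0.49). *Lfng*, which modifies Notch receptors, was at 51.6 and 52.8 CPM against 32.4 and 27.2 CPM, and *Rbpj*, the Notch effector gene, at 98.5 and 98.4 CPM against 75.1 and 61.6 CPM. The calls of *Lfng* and *Rbpj* were lost with thinning. The target genes *Hes1* (303 and 200 CPM against 290 and 256 CPM), *Hey1* and *Heyl* and the receptor genes *Notch1*, *Notch2* and *Notch3* did not pass. Of 23 growth factor reception genes 4 were higher and 1 was lower (background 5.93% higher, 2.35% lower): *Fgfr4*, the muscle-lineage FGF receptor gene, was at 23.0 and 25.9 CPM against 5.72 and 7.54 CPM, and *Fgfr1* was the lower gene at 52.4 and 62.2 CPM against 81.6 and 91.8 CPM. With *Myog* as the only condition the direction of *Fgfr1* turned (log2 fold change 0.11). *Igfbp5*, an IGF binding protein gene, was at 54.8 and 49.7 CPM against 27.8 and 35.2 CPM. *Spry2*, a feedback inhibitor gene, was at 34.1 and 59.1 CPM against 28.6 and 28.9 CPM, and its call was lost under 5 of the alternatives. Of 16 tested HoxA and HoxD genes 2 were lower (background 2.35%) and none was higher. These were *Hoxa9*, at 117 and 107 CPM against 162 and 156 CPM, and *Hoxa10*, at 127 and 154 CPM against 186 and 170 CPM, and the call of *Hoxa10* was lost under 4 alternatives.

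Among genes with a mean of at least 50 CPM in *Myog*-negative cells and libraries that did not overlap, *Msx1* and *Msx2* had the largest decreases. *Msx1*, a homeobox repressor gene of undifferentiated limb bud cells, was at 80.2 and 73.6 CPM in *Myog* cells, 247 and 218 CPM in *Myog*-negative cells and 492 and 399 CPM in other cells (log2 fold change between the myogenic classes -1.56 ± 0.11, adjusted p = 1.06e-46). *Msx2* was at 20.6 and 18.7 CPM against 56.8 and 47.4 CPM, and *Ebf1*, a factor gene of mesenchyme, at 45.3 and 30.1 CPM against 78.5 and 83.8 CPM. *Tnfaip6* (34.1 and 39.4 CPM against 77.4 and 84.2 CPM), *Nkd2*, a Wnt feedback gene (46.9 and 38.3 CPM against 105 and 71.2 CPM), and *Plk2*, a stress-responsive kinase gene (65.9 and 74.6 CPM against 133 and 122 CPM), belonged to the same group of 10. So did *Flrt3*, *Lix1*, *Mecom* and *Epha3*, with log2 fold changes between -0.88 and -0.82.

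The 16 limb mesenchyme markers, *Msx1* and *Msx2* among them, summed to between 506 and 534 CPM in *Myog* cells, 866 to 870 CPM in *Myog*-negative cells and 3074 to 3165 CPM in other cells, with 15, 16 and 16 of them present, and 6 of 16 were lower in *Myog* cells against *Myog*-negative cells (background 2.35%), while 10 did not pass. *Prrx1* was at 87.3 and 69.4 CPM, 117 and 128 CPM and 691 and 649 CPM in the 3 classes. The part of these transcripts in the lower genes above was not tested. With *Myog* as the only condition for membership, which adds the cells with *Prrx1* UMIs named above, *Prrx1*, *Msx2*, *Lix1* and *Mecom* turned higher in *Myog* cells, and *Msx1*, *Twist2*, *Ebf1* and *Tnfaip6* no longer passed.

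Markers of further cell types were examined in the same way. Endothelial markers summed to 3.18 and 4.14 CPM in *Myog* cells, with *Cdh5*, *Kdr*, *Cldn5*, *Emcn* and *Tie1* at 0, and immune markers to 0 and 2.07 CPM. Erythroid markers summed to 3.97 and 9.33 CPM in *Myog* cells, against 355 and 292 CPM in other cells. Epithelial markers lay at 14.3 and 14.5 CPM and tendon markers at 19.1 and 16.6 CPM. Of the heart markers only *Tnni3* had UMIs in *Myog* cells (3.18 and 2.07 CPM). Chondrogenic markers summed to between 192 and 226 CPM, against 168 to 170 CPM in *Myog*-negative cells and 497 to 527 CPM in other cells, and none of the 6 tested differed between the myogenic classes. The summed level of the glial list, 56.4 and 63.2 CPM, rested on *Erbb3*, a neuregulin receptor gene that muscle cells also use, at 51.6 and 61.1 CPM against 21.0 and 21.4 CPM in *Myog*-negative cells, while *Sox10* was at 0. In other cells the glial list stood at 6.32 to 7.15 CPM. Neuron markers summed to between 39.7 and 53.9 CPM, against 21.0 to 35.2 CPM in *Myog*-negative cells and 43.6 to 48.7 CPM in other cells, and of these *Tubb3*, a tubulin gene of young neurons, was higher at 12.7 and 18.7 CPM against 5.34 and 7.96 CPM. *Trp63*, which marks the epithelium, was at 7.15 and 7.25 CPM against 1.91 and 1.26 CPM, where the keratin genes *Krt5* and *Krt14* had 1 UMI between them in *Myog* cells. At 0.675 and 0.793 CPM in other cells, *Trp63* passed the filter on low counts through its level in *Myog* cells. The calls of *Tubb3* and *Trp63* were each lost under 4 alternatives. In the list that marks the sorted tdTomato+ lineage, tdTomato was at 5.56 and 4.14 CPM in *Myog* cells and 3.79 and 4.32 CPM in other cells, *Hic1* was at 0 and 1.04 CPM, and *Osr1* was lower than in *Myog*-negative cells (3.18 and 0 CPM against 5.72 and 8.80 CPM), a call lost under 8 of the alternatives.

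*Myog* cells were then set against all other cells, mostly limb mesenchyme. Here 3329 of 10247 genes, 32.5%, passed, 1934 higher (18.9%) and 1395 lower (13.6%). The 28 tested sarcomere genes and the 15 tested receptor and excitation genes were higher, which the filter on low counts favours, since genes near 0 in other cells are tested only where *Myog* cells hold them (11 and 7 listed genes were not tested). The 10 largest increases among genes at 50 CPM or more in *Myog* cells included *Vgll2*, a muscle cofactor gene of TEAD factors, at 105 and 110 CPM in *Myog* cells, 24.4 and 14.7 CPM in *Myog*-negative cells and 0.126 and 0.188 CPM in other cells (log2 fold change 9.53 ± 0.25). *Arpp21*, a cAMP-regulated phosphoprotein gene, was at 81.8 and 88.1 CPM against 0.211 and 0.188 CPM in other cells. *Myl1*, a fast myosin light chain gene, stood at 253 and 197 CPM against 0.422 and 0.313 CPM. The other 7 were *Tnnc2*, *Ttn*, *Tnnt2*, *Acta2*, *Myh3*, *Klhl41* and *Atp2a1*, with log2 fold changes from 8.13 to 9.77.

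Among the 10 largest decreases against other cells, at 50 CPM or more in other cells, were several transcription factor genes. *Lhx9*, a LIM homeobox gene of the limb bud, was at 19.9 and 11.4 CPM against 221 and 224 CPM, and *Hoxd13*, which patterns the distal limb, at 8.73 and 12.4 CPM against 131 and 113 CPM. *Hoxd12* was at 3.97 and 8.29 CPM against 75.0 and 69.5 CPM, and *Tbx18*, a T-box gene of proximal mesenchyme, at 7.15 and 9.33 CPM against 99.8 and 108 CPM. *Rspo3*, a Wnt enhancer gene, *Cxcl14*, a chemokine gene, *Lhfp*, *Msx2* and *Fam212a* had log2 fold changes between -3.83 and -3.23. *Pf4*, a chemokine gene of platelets and macrophages, had no UMI in *Myog* cells and was at 48.4 and 56.0 CPM in other cells, at least 38.7-fold lower. The 24 mitosis genes held 11 that were lower and none that was higher in this comparison (background 13.6% lower).

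Within the *Myog* cells, muscle transcripts were concentrated in some of them. The cells were split by their *Myog* UMIs into those with 1 (35 and 24 cells), with 2 to 9 (37 and 35) and with 10 or more (29 and 28), limits chosen after the values had been seen, and the levels are given as a description with no test. The last group was 28.7% and 32.2% of the cells and 26.2% and 28.1% of their UMIs. It held 95.3% and 95.8% of the *Mylpf* UMIs, 90.7% and 87.4% of those of *Ttn*, 95.9% and 93.4% of *Mef2c* and 98.3% and 100% of *Gm7325*. Other muscle transcripts were less concentrated: the group held 68.0% and 63.2% of the sarcomere-list UMIs, 63.0% and 64.0% of *Tnnt1* and 48.5% and 48.1% of *Cdh15*.

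**Figure D4:**
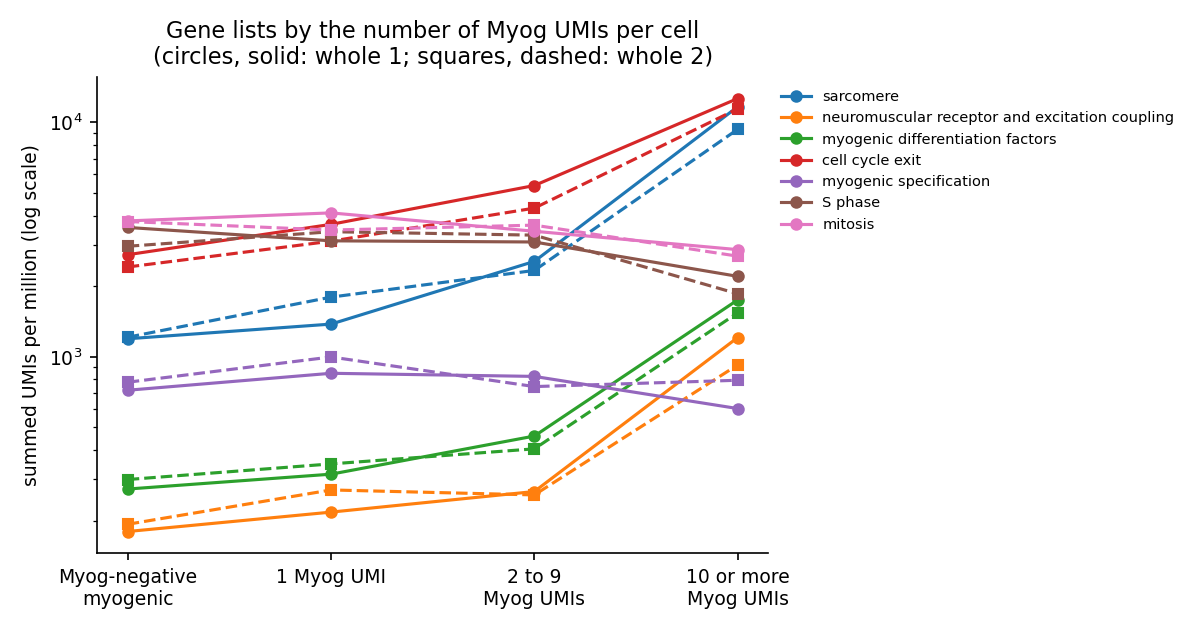
Summed level (CPM, log scale) of 7 gene lists, with the genes of the class rules left out, in *Myog*-negative myogenic cells and in *Myog* cells with 1, 2 to 9 and 10 or more *Myog* UMIs; solid lines with circles are whole 1, dashed lines with squares whole 2. The sarcomere list goes from 1193 and 1212 in *Myog*-negative cells to 11673 and 9352 in cells with 10 or more *Myog* UMIs, while the mitosis list goes from 3800 and 3778 to 2866 and 2688.

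The sarcomere list summed to 1379 and 1797 CPM in cells with 1 *Myog* UMI, 2553 and 2336 CPM in those with 2 to 9 and 11673 and 9352 CPM in those with 10 or more, against 1193 and 1212 CPM in *Myog*-negative myogenic cells. Cells with 1 *Myog* UMI thus lay much nearer to the *Myog*-negative class than to the cells richest in *Myog*. *Ttn* went from 18.8 and 37.5 CPM through 115 and 101 CPM to 1800.3 and 1355 CPM, and *Chrna1* from 2.09 and 0 CPM through 13.3 and 18.7 CPM to 261 and 214 CPM. *Mef2c* was at 4.18 and 11.3 CPM, 19.9 and 18.7 CPM and 786 and 576 CPM. These 3 genes were low in both lower groups and high in the last in both libraries.

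Genes with higher levels in the first group are given next. *Acta2* was at 205 and 503 CPM, 687 and 587 CPM and 2584 and 2658 CPM, and it had a UMI in 29 of 29 and 27 of 28 cells of the last group. *Tnnt1* was at 115 and 143 CPM, 273 and 187 CPM and 920 and 775 CPM. The cell cycle exit list rose from 3674 and 3114 CPM through 5381 and 4310 CPM to 12657 and 11438 CPM, which was largely *Cdkn1c* (2465 and 2116 CPM, 4218 and 2984 CPM, 9894 and 8924 CPM). *Cdkn1a* was at 272 and 128 CPM, 284 and 302 CPM and 1090 and 982 CPM. *Meg3* was at 478 and 383 CPM and at 574 and 503 CPM in the lower groups and stood at 2417 and 2370 CPM in the last.

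The specification list, without the rule genes, was at 850.1 and 998 CPM in cells with 1 *Myog* UMI, 824 and 746 CPM in those with 2 to 9 and 601 and 794 CPM in those with 10 or more, so in whole 2 the last group was not the lowest. *Met* was at 77.3 and 56.3 CPM in cells with 1 *Myog* UMI, 59.8 and 35.1 CPM in those with 2 to 9 and 12.1 and 40.6 CPM in those with 10 or more. *Id3* went from 3035 and 3673 CPM to 1864 and 2127 CPM and *Id2* from 1926 and 2165 CPM to 905 and 1056 CPM between the first and the last group. *Myf5*, which helped to choose the cells, was at 107 and 90.0 CPM in the first group and had no UMI in the last. At 3000 UMIs per cell, *Pax3* had a UMI in 17 of 35 and 9 of 24 cells of the first group and in 4 of 29 and 7 of 28 of the last, and at full depth in 29 and 17 and in 11 and 15 of them. In other cells, whose definition limits *Pax3*, it had one in 0.755% and 0.850% at 3000 UMIs. The S phase list was at 3125 and 3418 CPM, 3090 and 3304 CPM and 2204 and 1857 CPM, and the mitosis list at 4113 and 3474 CPM, 3433 and 3646 CPM and 2866 and 2688 CPM.

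By cell and at 3000 UMIs, 3 or more sarcomere genes were present in 12 of 35 and 9 of 24 cells with 1 *Myog* UMI, in 23 of 37 and 21 of 35 with 2 to 9 and in 29 of 29 and 25 of 28 with 10 or more. Of the same cells, 88.6% and 62.5%, 73.0% and 80.0% and 55.2% and 42.9% had 3 or more mitosis genes. In the last group 16 of 29 and 9 of 28 cells met both counts, the fewest that the separate counts allow in each library. UMIs of sarcomere and of mitosis genes therefore occurred in the same barcodes, but no more often than these counts require. The median limb mesenchyme UMIs in these 3000 were 1 in both last groups, and none of these cells was marked as a doublet, although the doublet caller marked too few cells to be of use. Without the 5% of cells with the highest doublet scores, a setting chosen after seeing the data, the mean mitosis difference from *Myog*-negative cells was -18.3 points and 781 genes were called.

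Across the *Myog* cells at 3000 UMIs, Spearman's rho between *Myog* UMIs and sarcomere-list UMIs was 0.74 in whole 1 (101 cells) and 0.66 in whole 2 (87 cells), and between *Myog* and mitosis-list UMIs it was -0.32 and -0.34. These are descriptions over cells of the same libraries, which share their depth and free RNA. Full depth per cell moved with both: rho with the sarcomere list was -0.34 and -0.42, and with the mitosis list 0.48 and 0.59. The part of depth in these relations was not tested.

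**Figure D5:**
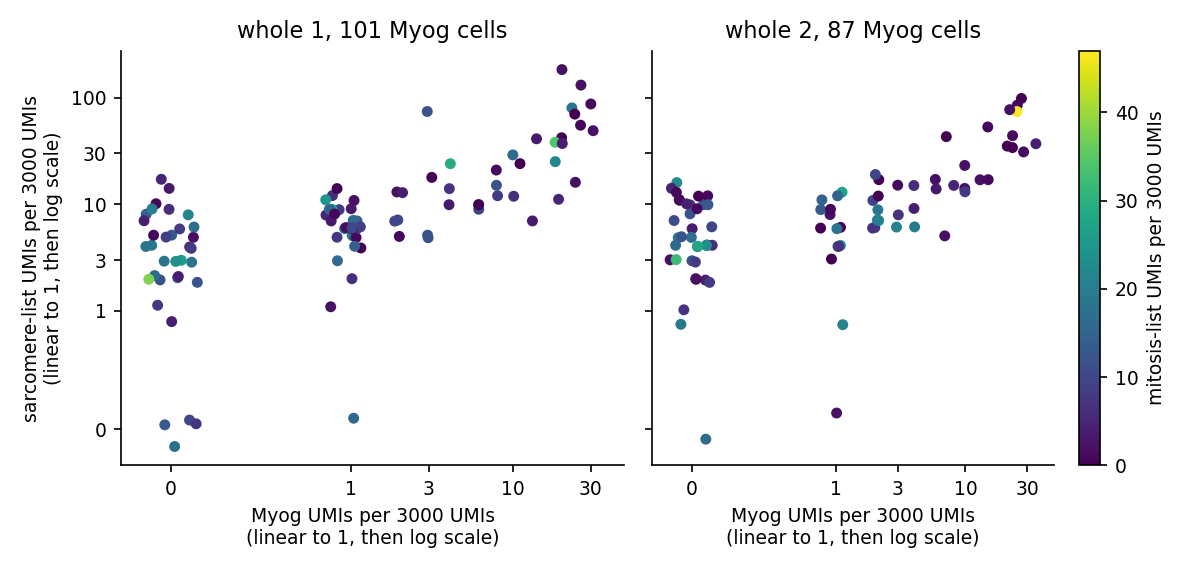
Each point is a *Myog* cell, thinned to 3000 UMIs (101 in whole 1, 87 in whole 2); the x axis gives *Myog* UMIs and the y axis UMIs of 39 sarcomere genes, both linear to 1 and then on a log scale with a small jitter, and the colour gives UMIs of 24 mitosis genes. Sarcomere UMIs run from 0 to 183 in whole 1 and from 0 to 98 in whole 2, and the cells with the most sarcomere UMIs, 183 and 98, have 20 and 27 *Myog* UMIs.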

How the data were processed

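The authors aligned reads of 10x Genomics 3′ libraries to a modified mm10 reference with Cell Ranger and deposited UMI counts per gene and cell (v2 kit at E11.5). Headers of the whole limb matrices name no version. Cells with at least 3000 UMIs, the filter of the study, and at most 10% mitochondrial UMIs were kept. Total depth was 51674380 UMIs in whole 1 and 51505671 in whole 2. Members, classes and the 28 gene lists were chosen with earlier results of these data known.

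Counts were summed per class and library, which gave 6 sums, and tested in edgeR 4.0.16 (R 4.3.3; glmQLFit and glmQLFTest, TMM scaling, its filter on low counts, library as a block, Benjamini-Hochberg adjustment over 10254 genes, threshold 0.05). The block is the library that both classes come from: deviations of the classes from their means correlated at 0.37, 0.49 and 0.67 over 3298 genes. The fit left 2 residual degrees of freedom. The 7 genes of the class rules (*Myog*, *Myod1*, *Myf5*, *Lbx1*, *Actc1*, *Pax3*, *Msc*) were fitted but are left out of all counts. CPM are UMIs per 1000000 UMIs of a sum. Ratios with 1 to 3 UMIs have an exact binomial 95% interval, and a count of 0 is set to 3 UMIs over both libraries.

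Named genes are the 10 with the largest log2 fold change per direction among those past the threshold, at 50 CPM or more in the higher class and with both libraries apart, without haemoglobin, mitochondrial, ribosomal protein and sex-linked genes, and up to 4 members of each list, plus list genes a result needed. For shares, cells were thinned to 3000 UMIs (seed 7; numpy 2.4.6, Python 3.11.15). Doublets were scored with scrublet in scanpy 1.11.5, which marked 2 and 4 cells and so did not work here. DESeq2 1.42.0, limma-voom (limma 3.58.1) and other settings were alternatives. When tested on simulated data of the first comparison (200 of 10121 genes changed 4-fold), edgeR called 199 with 0 false calls, DESeq2 196 with 0 and limma-voom 196 with 2. The simulated spread was the one fitted to these data, and rare genes were not among those changed. The real calls had a median absolute log2 fold change of 0.767, so these counts do not apply to smaller changes or rare genes. Coordinates are from GENCODE vM21 and promoters from RefSeq. Antisense and overlapping genes were not separated. Results of 3 genes are not reported here.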

Additional observations from a re-analysis of the deposited data

Results flagged for a closer look

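The sorted tdTomato+ libraries enter no comparison, yet in the E16.5 proximal library 6 cells met the rule of the *Myog* cells with 10 or more *Myog* UMIs (up to 81). A sorted library was flagged when it held more than 3 such cells, a limit that does not show what the cells are. In all, 129 of the 11109 cells of the E16.5 proximal library met the rule, and 12 met it when cells were thinned to 3000 UMIs.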

How the results depend on the processing

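In the first comparison, 849 genes were called, 483 with DESeq2, 436 with no replicate block and 282 with cells thinned to 3000 UMIs. This thinning came after the rule, so the cells of each class stayed the same. The other planned settings gave 721 to 1126. In the second, 3329 were called, 2175 with DESeq2 and 1449 with thinned cells. Calls with no replicate block were all among the main ones, and 12 named genes lost theirs. *Myog* as the only condition gave 997 calls in the first comparison, of which 528 (53.0%) were higher and 465 (46.6%) were among the main calls, 54.8% of these, and it reversed *Fgfr1* (0.11), *Lix1* (0.80), *Mecom* (0.94), *Msx2* (0.81) and *Prrx1* (1.19), all log2 fold changes. Sarcomere genes called higher ranged from 21 (thinned) to 29 (2 or more *Myog* UMIs). The lower mitosis genes, 1, became 0 with DESeq2, with no replicate block, when thinned and with *Myog* alone, and 4 with 2 or more *Myog* UMIs. Shares of *Myog* cells became 1.21% and 1.11% with 2 or more *Myog* UMIs and 2.89% and 2.78% with *Myog* alone. With cells thinned before the rule was applied, the shares were 1.17% and 0.774%. The mean mitosis difference became -11.0 points with 5 or more markers, -8.63 without thinning and -11.8 with *Myog* alone, and ranged from -22.3 without whole 1 to -14.2 without whole 2. The causes were not tested. Counts of called genes could not be had without one library, since a single library leaves no residual degrees of freedom; the values within each library stand for it. Of 1065 values of 72 genes named in the first comparison, 965 kept direction and call, 73 lost the call, 22 moved beyond the spread of the libraries and 5 reversed.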

Other observations

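Of the other sorted libraries, E12.5 held 2 cells of the rule among 4714, and 1 of the 2 had 53 *Myog* UMIs. At E11.5 the rule was met by 3 sorted cells, at E14.5 by 1 and in the E16.5 distal segment by 31, with 0 at E13.5, and none of these had 10 or more *Myog* UMIs. Sorted cells with *Myog* but no second gene were not examined.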
